A study of Mus musculus with 28 samples.

Results

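The mitosis genes are 40 genes of murine bone marrow-derived macrophages (BMDMs), listed by name for their textbook roles in cell division, with earlier results of these data known. All 40 were found by symbol among the 54532 genes of the count table, and all 40 were among the 12695 genes that passed a filter on low counts applied without regard to group. Messenger RNA was sequenced from 28 BMDM cultures to ask how von Willebrand factor (VWF), the plasma protein that tethers platelets to damaged vessel wall, changes macrophage gene expression. Bone marrow cells of C57/B6JB mice aged 8 to 12 weeks were matured into BMDMs with macrophage colony-stimulating factor (M-CSF), the growth factor that keeps macrophages alive and dividing. Control cultures received PBS, VWF cultures received 10 μg/ml of VWF purified from plasma (pd-VWF) and LPS cultures received 100 ng/ml of bacterial lipopolysaccharide, all in fresh medium with added calcium chloride. RNA was taken after 3.5 h or 16 h, giving 5 control, 5 VWF and 4 LPS cultures at each time. The labels call the cultures biological replicates without saying which mouse each came from, so the p-values measure the spread between these cultures.

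Before a cell divides it makes a second copy of its DNA in S phase, and in mitosis it then shares the copies between the daughter cells. Cyclin B with its kinase CDK1 starts mitosis, polo-like and aurora kinases build the spindle, the spindle assembly checkpoint holds the chromosomes until all are attached, and the anaphase-promoting complex then ends mitosis by destroying cyclin B. Most genes for this machinery are transcribed late in the cycle, by FOXM1 and B-MYB with the MuvB complex. In resting cells the DREAM complex represses them through promoter elements called cell cycle genes homology regions. Many of their promoters also hold another element, the CCAAT box. BMDMs divide in response to M-CSF, and LPS is known to stop that division. In a culture measured as a whole, fewer dividing cells and less RNA per dividing cell cannot be told apart.

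Library totals ran from 41131209 to 77699206 counts (median 52986574). Levels below are CPM, counts scaled to a common library total with TMM factors, which correct each library for its RNA composition. Log2 fold changes are given with an approximate standard error (SE), derived from the F statistic of the test named next. A gene is called higher or lower where its log2 fold change passed 1 and its adjusted p was under 0.05 in edgeR's quasi-likelihood test, with Benjamini-Hochberg adjustment over the 12695 genes, and all adjusted p-values below come from that test. All 10 macrophage markers were expressed in the cultures, with a summed level of 7579 to 28094 CPM. The T and NK cell list summed to 1.91 CPM at most (Gzma at 0 in all cultures) and the erythroid list to 1.44 CPM at most, while the B and plasma cell list summed to between 1.46 and 14.8 CPM (Igll1 at 0) and the neutrophil list to between 4.62 and 38.6 CPM. A fibroblast and endothelial list summed to between 19.5 and 439 CPM. Dendritic cell markers, nearly all of it Bst2, summed to between 192 and 646 CPM in controls at 16 h to between 1219 and 2734 CPM with VWF at 16 h and to between 2585 and 7110 CPM with LPS at 16 h, and progenitor and mast cell markers, nearly all of it Hdc, reached 299 CPM with LPS at 16 h. The macrophage list itself summed to between 22051 and 28094 CPM with VWF at 16 h and to between 7579 and 17633 CPM in controls of that time. Mitochondrial genes took 0.269% to 0.467% of counts with LPS at 16 h, 0.551% to 0.721% with VWF and 0.575% to 0.845% in controls. The part of these differences in the results was not tested. A pair of libraries stood apart. Control 16 h replicate 5 differed by more than 1 log2 unit from the rest of its group for 26.1% of genes and LPS 16 h replicate 4 for 19.0%. The share was at most 7.57% in any other culture. The counts of members called in each comparison at 16 h that holds one of these libraries are thus given with and without it. Over the 12695 genes the deviations of LPS 16 h replicate 4 had an r of 0.66 with those of Control 16 h replicate 5. For VWF 16 h replicate 4, which was kept, r was 0.61. Outside the controls at 16 h, r ran from -0.58 to 0.47 in the other cultures. What these libraries share was not tested.

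The promoters of 34 of the 40 genes were matched by symbol in RefSeq (build GRCm38.p6), each running from 250 bases before to 50 bases after the transcription start. Foxm1, Incenp, Kif20a, Ccna2, Tpx2 and Aurkb had no entry. The letters CCAAT were searched on both strands, so that ATTGG is a match too, as were TTTGAA (or TTCAAA) and the palindrome TTTAAA. None of these motifs contains another. CCAAT stood in 27 of the 34 promoters (79.4%) against 41.1% of the 27025 genes with a promoter, and TTTGAA stood in 26 (76.5%) against 20.2%. TTTAAA stood in 9 (26.5%) against 14.9%. A CCAAT together with a TTTGAA or TTTAAA that began between 60 bases before and 50 bases after the start, a window chosen after the data were seen, was found in 24 of the 34 promoters (70.6%), in 19 of 53 promoters of other mitotic genes (35.8%), in 4 of 30 promoters of DNA replication genes (13.3%) and in 4.26% of all genes. Mad2l1, Nuf2 and Nusap1 held none of the letters. A match is a description of the letters, not evidence of a bound factor. The promoters of 6 genes are shown, 5′ to 3′ on the strand of the gene, with the matches in capitals. Ccnb1 lies at chr13:100786437-100786736 on the minus strand, Plk1 at chr7:122159185-122159484 on the plus strand, Cdc20 at chr4:118437294-118437593 on the minus strand, Espl1 at chr15:102296043-102296342 on the plus strand, Kif23 at chr9:61946750-61947049 on the minus strand and Top2a at chr11:99024140-99024439 on the minus strand.
Ccnb1: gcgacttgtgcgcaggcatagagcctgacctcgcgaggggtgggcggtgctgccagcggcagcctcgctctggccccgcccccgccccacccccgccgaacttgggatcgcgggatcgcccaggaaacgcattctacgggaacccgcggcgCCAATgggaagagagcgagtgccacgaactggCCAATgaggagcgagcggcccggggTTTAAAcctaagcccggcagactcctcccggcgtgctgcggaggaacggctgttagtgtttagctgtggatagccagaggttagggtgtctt
Plk1: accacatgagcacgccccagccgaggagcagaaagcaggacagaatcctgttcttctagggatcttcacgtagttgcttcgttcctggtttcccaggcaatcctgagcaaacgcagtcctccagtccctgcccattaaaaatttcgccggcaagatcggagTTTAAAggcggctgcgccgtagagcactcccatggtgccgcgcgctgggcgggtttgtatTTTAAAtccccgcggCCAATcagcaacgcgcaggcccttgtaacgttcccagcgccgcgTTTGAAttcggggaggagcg
Cdc20: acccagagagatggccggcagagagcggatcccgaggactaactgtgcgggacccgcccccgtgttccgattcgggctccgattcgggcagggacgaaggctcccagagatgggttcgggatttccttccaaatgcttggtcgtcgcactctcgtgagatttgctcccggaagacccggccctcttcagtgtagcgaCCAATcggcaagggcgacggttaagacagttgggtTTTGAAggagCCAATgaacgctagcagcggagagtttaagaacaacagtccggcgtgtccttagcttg
Espl1: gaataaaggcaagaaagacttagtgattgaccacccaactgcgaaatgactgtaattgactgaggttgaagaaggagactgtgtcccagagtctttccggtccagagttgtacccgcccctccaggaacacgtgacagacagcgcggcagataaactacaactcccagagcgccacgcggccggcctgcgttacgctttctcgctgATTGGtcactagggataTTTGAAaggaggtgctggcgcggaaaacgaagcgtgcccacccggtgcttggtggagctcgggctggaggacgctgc
Kif23: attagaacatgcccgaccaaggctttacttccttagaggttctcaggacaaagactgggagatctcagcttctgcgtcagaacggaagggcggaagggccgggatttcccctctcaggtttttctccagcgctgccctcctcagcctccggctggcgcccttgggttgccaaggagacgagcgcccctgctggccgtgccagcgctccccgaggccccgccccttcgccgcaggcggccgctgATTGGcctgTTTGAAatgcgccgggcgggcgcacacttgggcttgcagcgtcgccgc
Top2a: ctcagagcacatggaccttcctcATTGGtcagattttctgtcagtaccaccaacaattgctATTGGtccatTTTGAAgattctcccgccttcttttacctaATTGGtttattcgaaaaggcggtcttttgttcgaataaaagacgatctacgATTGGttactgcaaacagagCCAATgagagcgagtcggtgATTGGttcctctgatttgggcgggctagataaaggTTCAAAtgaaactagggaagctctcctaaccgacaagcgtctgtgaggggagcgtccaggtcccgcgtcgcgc
The 6 were picked from several roles, with Cdc20 and Espl1 from the same role, among members that hold the motifs searched. That each holds a CCAAT and a TTTGAA or TTTAAA thus follows from the choice. The levels of these genes in each culture are given below.

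Averaged over the 40 genes, log2 CPM in controls was 4.56 ± 0.22 (SD, n = 5) after 3.5 h and 5.07 ± 0.15 (SD, n = 5) after 16 h. VWF cultures averaged 4.1 ± 0.3 (SD, n = 5) early and 3.94 ± 0.27 (SD, n = 5) late, and LPS cultures 3.59 ± 0.19 (SD, n = 4) early and 0.91 ± 0.19 (SD, n = 4) late. The LPS cultures at 16 h thus lay far under every other group, and the VWF cultures at 16 h lay about 1 log2 unit under the controls of that time. The plot of list means by culture sets the 40 genes beside 38 DNA replication genes. Per kilobase of exon, the highest mean levels in controls at 16 h were those of Ube2c (44.8 CPM per kb), Birc5 (31.0) and Ccnb2 (30.3), and the lowest were those of Ttk (1.91), Espl1 (1.83) and Cenpf (0.96). With LPS at 16 h that order changed, with Tpx2 first at 23.2 CPM per kb, followed by Incenp at 7.18 and Cks2 at 6.45.

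**Figure D1:**
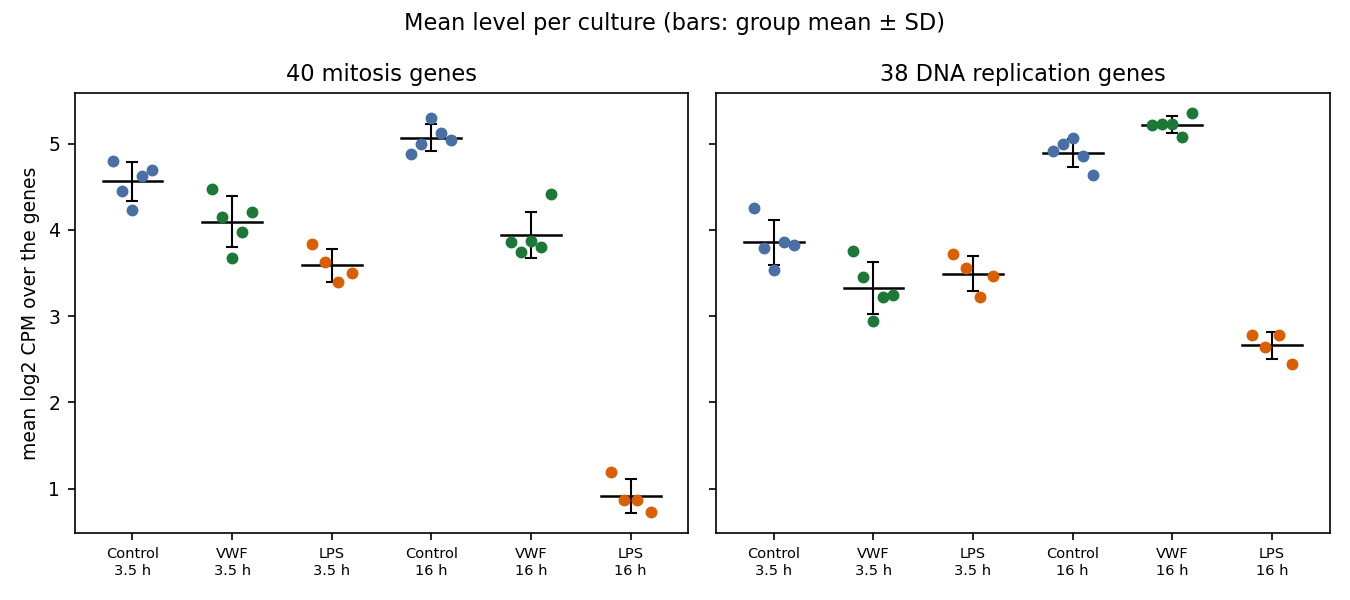
Mean log2 CPM (y axis) over the 40 mitosis genes (left) and 38 DNA replication genes (right), with 1 point for each culture and bars for the group mean and SD, for controls, VWF and LPS at 3.5 h and 16 h (x axis). The mitosis genes averaged 0.91 with LPS at 16 h against 5.07 in controls, while with VWF at 16 h they averaged 3.94 and the DNA replication genes 5.22.

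The spread between cultures of a group was not the same for all members. The SD of log2 CPM within a group had a median over the members of 0.25 to 0.31 in 5 groups and 0.47 with LPS at 16 h, and over all genes tested it had a median of 0.21 to 0.31. Kif20a, a kinesin of the central spindle, had the largest SD in every group, up to 1.97. It read 0.866 CPM in Control 16 h replicate 5 against 11.7 to 19.2 CPM in the other controls at 16 h, and 0 CPM in LPS 16 h replicate 4. Of its exon length 29.3% overlaps Cdc23 on the opposite strand, so reads of the pair may not have been separated. The cause of the spread of Kif20a was not tested. Among the smallest SDs were those of Cdc20 in controls at 3.5 h (0.09), Ect2 with LPS at 16 h (0.08) and Cks2 and Ccnb2 with LPS at 3.5 h (0.08 each). In some cultures the members deviated together: VWF 16 h replicate 5 was the highest VWF culture at that time for 40 of 40 members, by a median of 0.59 log2 units over the other cultures, and VWF 3.5 h replicate 3 was the lowest for 35. In others they did not. Control 16 h replicate 5 was the highest of its group for 17 members and the lowest for 15, and LPS 16 h replicate 4 for 13 and 17. Across the 780 pairs of members the deviations from the group means had a median Pearson r of 0.47 over the 28 cultures, and of 0.62 over the 24 cultures without LPS at 16 h. Within LPS at 16 h alone it was 0.12, with 54.1% of pairs above 0. The members of a culture share a library and its scaling, and no such value over all genes is set beside these, so this is a description.

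After 3.5 h with VWF, Ccnf was the only member called, and it was lower. Called lower were 1 of 40 members (2.5%) against 5.96% of all genes tested, and no member was called higher (8.95% of all genes). The median log2 fold change of the members was -0.40, against 0.02 over all genes, and 34 of 40 lay below 0. By adjusted p alone, without a fold threshold, 17 members were lower (18.7% of all genes) and 2 higher (21.4% of all genes). Ccnf encodes cyclin F, the substrate-binding part of a ubiquitin ligase. It read 21.5, 16.8, 14.8, 20.3 and 20.2 CPM in the control cultures at 3.5 h in replicate order, 10.2, 7.12, 4.26, 5.96 and 7.28 CPM with VWF and 2.41, 2.08, 2.84 and 1.8 CPM with LPS. The groups did not overlap: every VWF culture was under every control and every LPS culture under every VWF culture. The log2 fold change of Ccnf was -1.38 ± 0.2, adjusted p = 0.00017 with VWF. Ccnf at 16 h read 26.7, 26.2, 33, 30.0 and 27.9 CPM in controls, 15.7, 15.6, 14.3, 14.7 and 22 CPM with VWF and 5.8, 5.51, 4.13 and 1.88 CPM with LPS. The groups again did not overlap, with VWF between the controls and LPS. Its log2 fold change with VWF there, -0.81 ± 0.13, adjusted p = 0.000764, was short of the threshold.

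Without VWF 3.5 h replicate 1 there were 7 members called, without Control 3.5 h replicate 3 or VWF 3.5 h replicate 5 there were 4, without Control 3.5 h replicate 2 there were 3, and without Control 3.5 h replicate 1 or VWF 3.5 h replicate 4 there were 2. The member nearest 0 after 3.5 h with VWF was Top2a, the topoisomerase that untangles sister DNA, at -0.02 ± 0.23, adjusted p = 0.966. Control and VWF groups did not overlap for 9 members (22.5%) against 32.2% of all genes: Ccnf, Plk1, Aurka, Bub1b, Ttk, Cdc20, Kif2c, Ect2 and Kif23. Mki67, which encodes the Ki-67 coat of mitotic chromosomes, was among the 2 members past the adjusted p on the higher side (0.44 ± 0.16, adjusted p = 0.0419). With library size alone in place of TMM the median of all genes was -0.26 in place of 0.02, and 9 members were called lower; Cks2, Ube2c and Espl1 then changed sign.

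After 3.5 h with LPS more of the members were called. Called lower were 18 of 40 (45%) against 14.2% of all genes tested, and none was called higher against 12.7% of all genes; the median log2 fold change was -0.88 against -0.03 over all genes. Without the fold threshold 31 members passed on the lower side (32.6% of all genes) and none on the higher side (29.1%). By role, 3 of 8 genes of cyclins, CDK1 and mitotic entry were lower, 2 of 2 polo and aurora A kinases, 2 of 4 chromosomal passenger genes, none of 4 checkpoint genes, 2 of 3 anaphase genes, 1 of 5 kinetochore genes, 3 of 6 spindle genes, 5 of 6 midzone and cytokinesis genes and none of the 2 chromosome genes. The largest falls were those of Ccnf (-3.03 ± 0.17, adjusted p = 2.91e-08), Kif20a (-2.93 ± 0.41, adjusted p = 7.72e-05) and Espl1 (-2.58 ± 0.22, adjusted p = 1.25e-06). The smallest difference was that of Birc5, which encodes survivin (-0.03 ± 0.26, adjusted p = 0.925).

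Espl1 encodes separase, the protease that opens the cohesin ring at anaphase. Its levels at 3.5 h were 14.6, 10.0, 7.26, 15.3 and 12.9 CPM in controls, 18.8, 12, 8.59, 10.0 and 14.4 CPM with VWF and 1.93, 2.16, 1.77 and 2.14 CPM with LPS. At 16 h they were 14.3, 15, 16, 16.8 and 18 CPM in controls, 12.8, 13, 14.8, 13.6 and 15.2 CPM with VWF and 1.91, 1.52, 1.77 and 2.02 CPM with LPS. The LPS cultures were low and close together at both times, with no overlap with control or VWF, whereas control and VWF overlapped at both times. With LPS the log2 fold change of Espl1 was already -2.58 at 3.5 h and was -3.13 ± 0.15, adjusted p = 1.52e-07 at 16 h, and with VWF at 16 h it was the member nearest 0 (-0.22 ± 0.09, adjusted p = 0.111).

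Kif23 encodes the motor subunit of centralspindlin, which bundles the central spindle before the cell pinches in. At 3.5 h it read 24.3, 21.5, 15.9, 25.5 and 27.3 CPM in controls, 14.6, 11.4, 7.19, 9.96 and 12.8 CPM with VWF and 6.25, 5.03, 4.45 and 4.25 CPM with LPS. Later, at 16 h, Kif23 read 24.4, 29.7, 34.6, 32.9 and 27.4 CPM in controls, 7.15, 7.11, 6.37, 6.58 and 13.5 CPM with VWF and 1.15, 0.632, 1.39 and 0.484 CPM with LPS. Controls were highest, VWF in the middle and LPS lowest at both times, with no overlap between any of the groups at one time. The log2 fold change with LPS was -2.19 ± 0.18, adjusted p = 6.25e-07 at 3.5 h and -5.01 ± 0.32, adjusted p = 1.13e-06 at 16 h. With VWF it was -0.99 ± 0.19, adjusted p = 0.00143 at 3.5 h, not called, and -1.88 ± 0.21, adjusted p = 9.14e-05 at 16 h.

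Leaving out LPS 3.5 h replicate 3 took Plk1 and Cdc20 out of the genes called with LPS at 3.5 h, and leaving out that culture or Control 3.5 h replicate 1 took out Ccna2. Only 4 members were at or above 0 with LPS at 3.5 h, Mad2l1, Ube2c, Nusap1 and Mki67, and with library size alone, where the median of all genes was -0.63 in place of -0.03, all 40 lay below 0 and 30 were called.

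**Figure D2:**
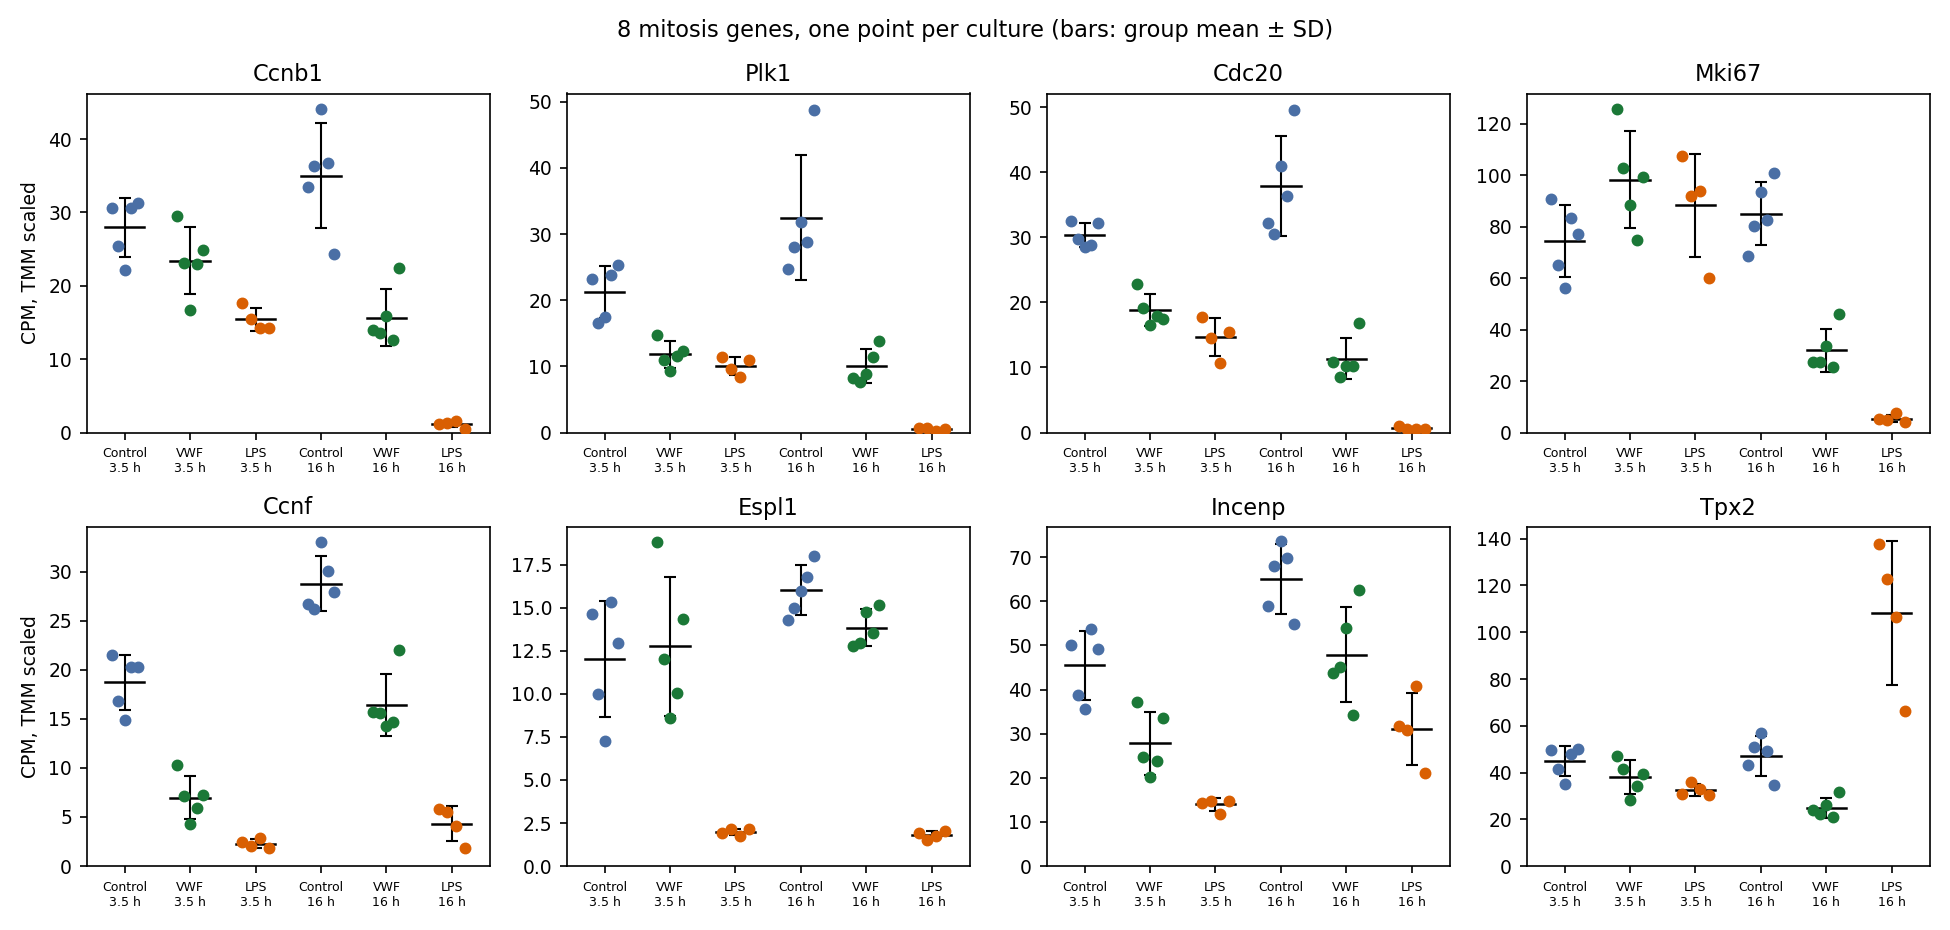
CPM (linear y axis from 0) of Ccnb1, Plk1, Cdc20, Mki67, Ccnf, Espl1, Incenp and Tpx2 by treatment and time (x axis), with 1 point for each of the 28 cultures and bars for the group mean and SD. With LPS at 16 h the first 4 genes lie under all other groups, Ccnf and Espl1 overlap LPS at 3.5 h, Incenp overlaps VWF, and Tpx2 lies above all other groups.

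After 16 h with VWF more of the mitosis genes were low. Called lower were 23 of 40 members (57.5%) against 5.25% of all genes tested, none was called higher against 4.56%, and all 40 log2 fold changes lay below 0, with a median of -1.14 against -0.03 over all genes. Without the fold threshold 37 members passed on the lower side (14% of all genes) and none on the higher side (11.6%). Control and VWF cultures did not overlap for 34 members (85%) against 22.6% of all genes. By role, 5 of 8 genes of cyclins, CDK1 and mitotic entry were lower, both polo and aurora A kinases, 1 of 4 chromosomal passenger genes, none of 4 checkpoint genes, 2 of 3 anaphase genes, 3 of 5 kinetochore genes, 5 of 6 spindle genes, 4 of 6 midzone and cytokinesis genes and 1 of 2 chromosome genes. The largest fall was that of Cenpa, the histone H3 variant that marks the centromere (-2.0 ± 0.33, adjusted p = 0.00116), but without Control 16 h replicate 5 it was -1.63, a smaller fall than those of Kif23 (-1.9) and Ccnb2 (-1.87). Without that culture 25 members were lower with a median of -1.1. Of the 23 above, 21 were among these 25. Aurka (-0.88) and Birc5 (-0.99) no longer passed the fold threshold, and Nuf2, Tpx2, Kif20a and Prc1 were called. The call for Kif4, a chromosome-bound kinesin, was lost without Control 16 h replicate 3 or VWF 16 h replicates 2 or 4.

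After 16 h with LPS nearly the whole set was low. Called lower were 39 of 40 members (97.5%) against 14.2% of all genes tested, and 1 member, Tpx2, was called higher against 14.2%. The median log2 fold change was -4.39, which is 21-fold lower, against -0.03 over all genes, and no member's LPS cultures overlapped the controls (40 of 40, against 44.4% of all genes). The largest fall was that of Cenpf (-6.79 ± 0.74, adjusted p = 4.57e-05), which rests on 23 counts over the 4 LPS cultures, and the smallest was that of Incenp (-1.05 ± 0.18, adjusted p = 0.000818). Without both Control 16 h replicate 5 and LPS 16 h replicate 4, an alternative chosen after seeing the data, 38 members were lower, 1 was higher and the median was -4.29. Incenp, at -0.94, was then not called, and LPS 16 h replicate 4 alone decided that call. With library size alone the median of all genes was -0.64 in place of -0.03, 39 members still lay below 0 and Tpx2 was no longer called. The VWF and LPS comparisons share the control cultures, and their values are set side by side gene by gene in what follows.

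**Figure D3:**
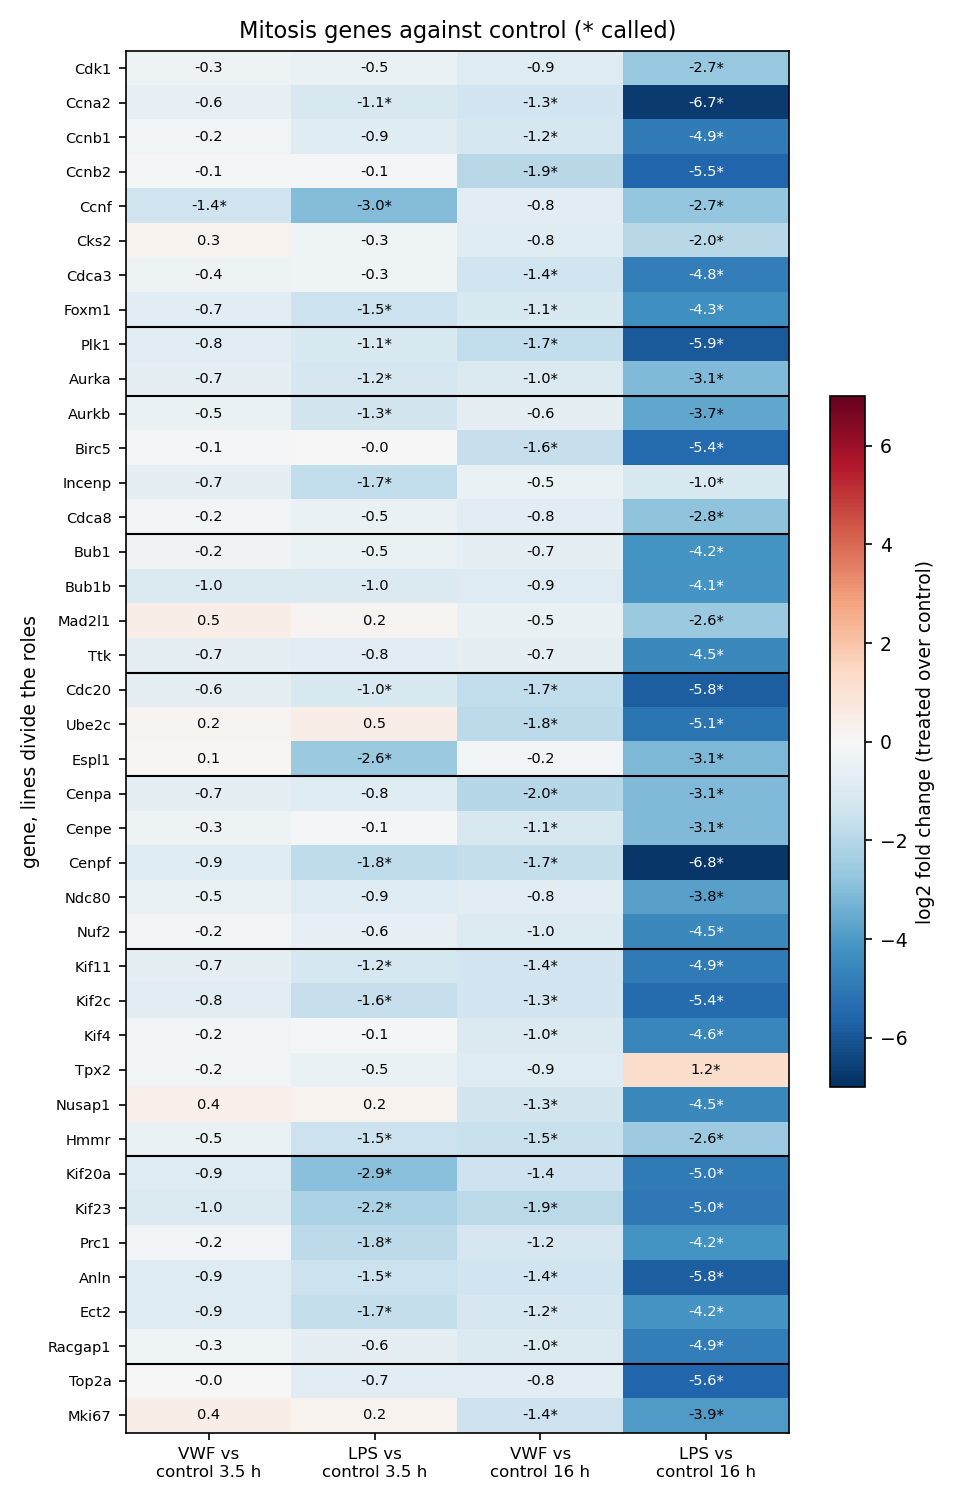
Log2 fold change against control of each of the 40 members (1 line each, ordered by role) with VWF and LPS at 3.5 h and 16 h (columns), as a colour from blue (lower) to red (higher) with the value printed and a star where the gene was called. At 16 h all members lie below 0 with VWF (median -1.14) and all but Tpx2 lie below 0 with LPS (median -4.39).

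Among the genes of mitotic entry, Ccnb1 encodes cyclin B1, the partner of CDK1 that triggers entry into mitosis. Its levels at 3.5 h were 30.5, 25.4, 22.1, 30.6 and 31.3 CPM in controls, 29.4, 23.1, 16.7, 23 and 24.9 CPM with VWF and 17.7, 15.5, 14.3 and 14.3 CPM with LPS. At 16 h the controls held 33.5, 36.3, 44, 36.8 and 24.3 CPM, the VWF cultures 14, 13.6, 15.8, 12.6 and 22.4 CPM and the LPS cultures 1.17, 1.34, 1.57 and 0.538 CPM. At 3.5 h LPS lay under the controls and VWF overlapped them, and at 16 h the 3 groups were separate. The log2 fold change at 16 h was -1.17 ± 0.18, adjusted p = 0.000833 with VWF and -4.9 ± 0.32, adjusted p = 1.29e-06 with LPS. Ccnb2, the sister cyclin B2, fell with VWF (-1.95 ± 0.21, adjusted p = 5.59e-05) and with LPS (-5.53 ± 0.26, adjusted p = 1.77e-07) at 16 h.

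Foxm1 encodes the forkhead factor that switches on late cell cycle genes. At 3.5 h it read 16.5, 13.8, 11.1, 23.7 and 18.1 CPM in controls, 14.2, 9.1, 5.98, 6.98 and 12.2 CPM with VWF and 6.93, 7.95, 4.4 and 4.42 CPM with LPS. By 16 h Foxm1 read 17.9, 21.1, 24.8, 24.4 and 19.2 CPM, 9.84, 9.36, 10.6, 8.42 and 13.5 CPM and 1.24, 0.711, 1.42 and 0.968 CPM in the same order of groups. LPS cultures were under the controls at both times and VWF cultures at 16 h alone. Foxm1 was called lower with LPS at 3.5 h (-1.48 ± 0.24, adjusted p = 0.000245) and at 16 h (-4.3 ± 0.23, adjusted p = 3.46e-07). With VWF at 16 h it was called lower too (-1.06 ± 0.14, adjusted p = 0.000226), a call that was lost without Control 16 h replicate 3 or VWF 16 h replicate 4.

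Cdk1, the mitotic kinase itself, ran from 78.5 to 143 CPM in controls at 16 h, with the top value in replicate 5, from 43 to 61.7 CPM with VWF and from 13.1 to 16.4 CPM with LPS. No group overlapped another at 16 h, and at 3.5 h all of them overlapped. Its log2 fold change at 16 h was -0.89 ± 0.18, adjusted p = 0.00433 with VWF, not called, and -2.67 ± 0.22, adjusted p = 6.39e-06 with LPS. Ccna2 (cyclin A2), Cks2 (a small CDK-binding protein) and Cdca3 (a trigger of mitotic entry) fell with LPS at 16 h (-6.68, -1.95 and -4.83).

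Among the kinases of the spindle, Plk1 encodes polo-like kinase 1, which matures centrosomes and activates CDK1. At 3.5 h its levels were 23.2, 16.6, 17.5, 23.8 and 25.3 CPM in controls, 14.8, 11, 9.3, 11.6 and 12.4 CPM with VWF and 11.4, 9.54, 8.38 and 11 CPM with LPS. At 16 h they were 24.8, 28, 31.9, 28.9 and 48.8 CPM in controls, 8.3, 7.69, 8.86, 11.5 and 13.9 CPM with VWF and 0.719, 0.632, 0.298 and 0.511 CPM with LPS. VWF and LPS cultures were both under all controls at 3.5 h and overlapped each other, and by 16 h the 3 groups were apart. At 3.5 h the log2 fold change was -0.8 ± 0.15, adjusted p = 0.00124 with VWF, not called, and -1.07 ± 0.15, adjusted p = 7.4e-05 with LPS. At 16 h Plk1 fell with VWF (-1.7 ± 0.22, adjusted p = 0.000242) and with LPS (-5.88 ± 0.33, adjusted p = 5.58e-07). Aurka, the aurora kinase of the spindle poles, fell with VWF at 16 h (-1.01 ± 0.15, adjusted p = 0.000664), and the call was lost without any of 4 cultures, Control 16 h replicates 3 and 5 and VWF 16 h replicates 2 and 3.

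The chromosomal passenger complex of aurora B (Aurkb), survivin (Birc5), INCENP (Incenp) and borealin (Cdca8) corrects wrong chromosome attachments. At 3.5 h Incenp, its scaffold, read 50.1, 38.8, 35.6, 53.8 and 49.1 CPM in controls, 37.1, 24.6, 20.2, 23.9 and 33.5 CPM with VWF and 14.3, 14.8, 11.9 and 14.7 CPM with LPS. By 16 h Incenp read 58.8, 68, 73.7, 69.7 and 54.9 CPM in controls, 43.7, 45.1, 53.9, 34.3 and 62.5 CPM with VWF and 31.8, 30.7, 40.8 and 21 CPM with LPS. With LPS it was low early and higher late, without overlap between the LPS cultures of the 2 times (1.17 ± 0.19, adjusted p = 0.000646). At 16 h it overlapped between VWF and LPS, and the log2 difference of VWF from LPS was 0.64 ± 0.21, adjusted p = 0.0248, not called.

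Birc5 in controls at 16 h read 65.3, 59.7, 85.4, 68.7 and 247 CPM, with replicate 5 far above the others. With VWF it read 32.3, 28, 23.1, 44.3 and 47.1 CPM and with LPS 1.64, 2.03, 1.89 and 4.25 CPM, and neither overlapped the controls. Its log2 fold change was -1.59 ± 0.42, adjusted p = 0.0167 with VWF and -5.42 ± 0.61, adjusted p = 5.52e-05 with LPS. Aurkb ran from 22.4 to 37.2 CPM in controls at 16 h, from 17.8 to 25.8 CPM with VWF and from 1.72 to 3.33 CPM with LPS. Controls and VWF overlapped for Aurkb (-0.64 ± 0.15, adjusted p = 0.00889), and LPS lay under both (-3.66 ± 0.23, adjusted p = 1.11e-06).

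None of the 4 checkpoint genes was called at 3.5 h with either agent or with VWF at 16 h, and all 4 were called lower with LPS at 16 h. Bub1b, which encodes BUBR1, an inhibitor of the anaphase-promoting complex, ran from 13 to 21.8 CPM in controls at 3.5 h, from 5.66 to 11.4 CPM with VWF and from 7.99 to 10.2 CPM with LPS. By 16 h Bub1b ran from 26.4 to 39.7 CPM in controls, from 13.5 to 23.7 CPM with VWF and from 1.02 to 2.16 CPM with LPS. Both agents' cultures were under all controls at both times, and the log2 fold change with VWF was -0.99 ± 0.19, adjusted p = 0.00126 at 3.5 h and -0.9 ± 0.16, adjusted p = 0.002 at 16 h, short of the fold threshold. With LPS at 16 h Bub1b fell (-4.12 ± 0.25, adjusted p = 8.19e-07), as did the kinases Bub1 (-4.16) and Ttk (-4.52) and the checkpoint protein Mad2l1 (-2.61).

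At the onset of anaphase, Cdc20 encodes the activator that lets the anaphase-promoting complex act. It read 32.5, 29.7, 28.5, 28.8 and 32.2 CPM in controls at 3.5 h, 22.8, 19.2, 16.5, 17.9 and 17.5 CPM with VWF and 17.8, 14.6, 10.8 and 15.5 CPM with LPS. By 16 h Cdc20 read 32.2, 30.5, 40.9, 36.4 and 49.6 CPM in controls, 10.9, 8.59, 10.3, 10.2 and 16.9 CPM with VWF and 1.01, 0.493, 0.572 and 0.618 CPM with LPS. Controls lay above VWF and LPS at both times, and VWF and LPS overlapped at 3.5 h only. Cdc20 fell with LPS at 3.5 h (-1.05 ± 0.13, adjusted p = 3.1e-05) and at 16 h (-5.8 ± 0.28, adjusted p = 1.9e-07), and with VWF at 16 h (-1.75 ± 0.2, adjusted p = 8.73e-05). With VWF the log2 fold change moved from -0.65 at 3.5 h to -1.75 at 16 h, a difference that passed the interaction test (-1.03 ± 0.22, adjusted p = 0.00118).

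Ube2c encodes the ubiquitin-conjugating enzyme of the anaphase-promoting complex. With LPS it read 128, 68, 83.8 and 83.3 CPM at 3.5 h and 2.4, 2.53, 2.51 and 5.75 CPM at 16 h. In controls it read 85, 66.1, 63.4, 48.3 and 64.5 CPM at 3.5 h and 71.5, 65.6, 85.4, 80.1 and 280.4 CPM at 16 h, and with VWF 66.6, 83, 75.4, 76.8 and 54.6 CPM and 27.9, 25.9, 24.4, 42.3 and 43.7 CPM. At 3.5 h all groups overlapped and the highest value was that of an LPS culture, and at 16 h the LPS cultures lay under all others. The effect of LPS on Ube2c differed between the times by the largest size among the members (-5.59 ± 0.6, adjusted p = 8.29e-07), and 22.8% of its exon length overlaps Tnnc2.

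Cenpa read 58.6, 55.3, 73.4, 68.8 and 155 CPM in controls at 16 h, with replicate 5 far above the others, 17.5, 16.6, 13.3, 26.8 and 28.8 CPM with VWF and 7.55, 7.54, 6.22 and 16.5 CPM with LPS. VWF and LPS overlapped each other and neither overlapped the controls. Cenpf encodes a large protein of the outer kinetochore. It read 11.7, 16.4, 17.7, 17.3 and 11 CPM in controls at 16 h, 3.64, 3.93, 4.37, 3.7 and 7.56 CPM with VWF and 0.36, 0.138, 0 and 0 CPM with LPS. No group overlapped another, and a pair of LPS cultures held no count of it. At 3.5 h it ran from 9.31 to 14.5 CPM in controls, from 4.2 to 10.5 CPM with VWF and from 2.65 to 4.56 CPM with LPS. Cenpf fell with VWF at 16 h (-1.68 ± 0.23, adjusted p = 0.000346) and with LPS at 3.5 h (-1.79 ± 0.19, adjusted p = 6.72e-06). Ndc80 and Nuf2, partners in the complex that grips microtubules, had log2 fold changes of -0.81 and -0.98 with VWF at 16 h and fell with LPS at 16 h (-3.83 and -4.52).

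Among the spindle proteins, Kif11, the kinesin that pushes the spindle poles apart, ran from 33.3 to 49.5 CPM in controls at 16 h, from 12.6 to 23.1 CPM with VWF and from 0.78 to 2.03 CPM with LPS, with no overlap. It fell with both agents at that time (-1.36 ± 0.17, adjusted p = 0.000149 with VWF, -4.93 ± 0.28, adjusted p = 6.27e-07 with LPS). Tpx2, which activates aurora A and starts microtubules near chromosomes, was the member called higher with LPS at 16 h. It read 49.8, 41.7, 35, 48 and 49.9 CPM in controls at 3.5 h, 46.9, 41.7, 28.1, 34.2 and 39.4 CPM with VWF and 30.9, 35.8, 32.9 and 30.5 CPM with LPS. At 16 h it read 43.3, 50.9, 57.1, 49.2 and 34.5 CPM in controls, 24.1, 22.2, 26.1, 20.9 and 31.7 CPM with VWF and 138, 123, 106 and 66.4 CPM with LPS. At 3.5 h the groups overlapped, and at 16 h LPS lay above and VWF under all controls, with the lowest LPS value in replicate 4. Tpx2 rose with LPS at 16 h (1.22 ± 0.21, adjusted p = 0.000914), and without the libraries that stood apart the log2 fold change was 1.32. With library size alone it was 0.61 (adjusted p = 0.0797), and the call was lost. With VWF at 16 h its log2 fold change was -0.92 ± 0.15, adjusted p = 0.000905, not called. The files give 1 count per gene, so which transcripts of Tpx2 gave these reads was not analysed here.

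In cytokinesis, Racgap1, the partner of Kif23 in centralspindlin, ran from 53.9 to 77.8 CPM in controls at 16 h, from 26.5 to 42.8 CPM with VWF and from 1.6 to 2.66 CPM with LPS. No group overlapped another, and the log2 fold change was -1.01 ± 0.14, adjusted p = 0.000379 with VWF and -4.85 ± 0.19, adjusted p = 5.86e-08 with LPS. The VWF call for Racgap1 was lost when any of 6 of the 10 cultures was left out (Control 16 h replicates 3 and 4 and VWF 16 h replicates 1 to 4). Prc1, which cross-links midzone microtubules, and Kif20a were not called with VWF at 16 h (-1.16 ± 0.48, adjusted p = 0.108 and -1.44 ± 0.65, adjusted p = 0.138).

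Mki67 at 3.5 h read 90.8, 64.9, 56, 83.3 and 77.2 CPM in controls, 126, 103, 88.3, 74.9 and 99.4 CPM with VWF and 107, 91.8, 93.9 and 60.2 CPM with LPS. At 16 h it read 68.7, 80.1, 93.3, 82.4 and 101 CPM in controls, 27.3, 27.4, 33.6, 25.3 and 46 CPM with VWF and 5.46, 4.78, 7.41 and 4.17 CPM with LPS. The groups overlapped at 3.5 h, where the highest values were with VWF and LPS, and were separate at 16 h. Mki67 fell at 16 h with VWF (-1.42 ± 0.17, adjusted p = 0.000124) and with LPS (-3.95 ± 0.2, adjusted p = 3.18e-07). Top2a at 16 h read 85.2, 102, 111, 108 and 84.6 CPM in controls, 51.1, 50.2, 61.5, 43.5 and 78.5 CPM with VWF and 2.97, 1.6, 2.19 and 1.4 CPM with LPS. The groups were separate too, with a difference of -0.79 ± 0.15, adjusted p = 0.00295 for VWF, not called, and a fall of -5.57 ± 0.25, adjusted p = 1.38e-07 for LPS.

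When VWF was set against LPS at the same time, 6 members were called higher with VWF at 3.5 h (15%, against 5.7% of all genes): Ccnf, Espl1, Hmmr, Kif20a, Kif23 and Prc1. None was lower (6.62% of all genes), and the median log2 difference was 0.38. Without the fold threshold 16 were higher (21.8% of all genes) and none lower (20.6%). The largest difference was that of Espl1 (2.68 ± 0.23, adjusted p = 4.85e-06) and the smallest that of Ccnb2 (-0.02 ± 0.1, adjusted p = 0.882). At 16 h 38 members were higher with VWF (95%, against 12.8% of all genes), Tpx2 was lower (-2.1 ± 0.2, adjusted p = 1.29e-05, against 13.9% of all genes called lower) and Incenp was not called. The median log2 difference was 3.27, and the largest was that of Ccna2 (5.37 ± 0.37, adjusted p = 1.36e-06). Same-numbered cultures deviated together in this comparison at 16 h, though the labels do not state that they are pairs. With the replicate number as a block Hmmr, a spindle protein that binds hyaluronan, was not called at 16 h (log2 difference 0.91, adjusted p = 0.0164). Without LPS 16 h replicate 4, 37 were higher and 1 lower, and Hmmr was again not called. The call for Hmmr at 3.5 h was lost without any of LPS replicates 3 and 4 and VWF replicates 1 and 5, and at 16 h without any of LPS replicates 2, 3 and 4 and VWF replicates 1, 3 and 5. The call for Cenpa at 16 h was lost without any of LPS replicates 2 and 3 and VWF replicate 5.

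In controls 3 of 40 members (7.5%) were called higher at 16 h than at 3.5 h, against 5.38% of all genes: Cdca3 (1.02 ± 0.24, adjusted p = 0.00654), Birc5 (1.13 ± 0.41, adjusted p = 0.0497) and Ndc80 (1.19 ± 0.15, adjusted p = 0.000204). The median log2 change was 0.52, and the smallest was that of Cks2 (-0.04 ± 0.17, adjusted p = 0.871). None was called lower (5.35% of all genes), and without the fold threshold 21 were higher (19.1% of all genes) and none lower (18.4%). Without Control 16 h replicate 5 the members called higher were Ndc80 and Aurkb. The call for Cdca3 was lost without any of Control 3.5 h replicates 3 and 4 and Control 16 h replicate 5, and that for Birc5 without any of 6 cultures, Control 3.5 h replicates 2 to 5 and Control 16 h replicates 3 and 5. Without Control 3.5 h replicate 1 there were 5 members called, and without Control 3.5 h replicate 3 or 4 there was 1. With VWF 5 members (12.5%) fell between 3.5 h and 16 h, against 12.7% of all genes: Ccnb2 (-1.63 ± 0.18, adjusted p = 1.09e-05), Mki67 (-1.62 ± 0.18, adjusted p = 1.03e-05), Cenpa (-1.41), Ube2c (-1.11) and Cks2 (-1.05), the last not without VWF 3.5 h replicate 1 or VWF 16 h replicate 3. Ccnf rose (1.24 ± 0.21, adjusted p = 0.000297), against 11% of all genes called higher, and the median log2 change was -0.2. Without the fold threshold 8 members passed on the higher side (31.6% of all genes) and 11 on the lower side (30.1%). With LPS 34 members (85%) fell, against 14.1% of all genes, with Ccnb2 falling furthest (-5.24 ± 0.22, adjusted p = 3.39e-07). Incenp (1.17 ± 0.19, adjusted p = 0.000646) and Tpx2 (1.76 ± 0.2, adjusted p = 7.5e-05) rose, against 15.5% of all genes called higher, and Espl1, already low at 3.5 h, differed least (-0.13 ± 0.21, adjusted p = 0.625). Without LPS 16 h replicate 4, 35 members fell and 3 rose, with Kif20a and Ccnf added.

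The interaction of treatment and time tests whether an effect differed between 3.5 h and 16 h. For VWF 8 members passed it (20%, against 8.24% of all genes called on the lower side), all with the lower value at 16 h: Ube2c (-1.93 ± 0.46, adjusted p = 0.00288), Ccnb2 (-1.82), Mki67 (-1.8), Nusap1 (-1.55), Birc5 (-1.41), Cenpa (-1.27), Cdc20 (-1.03) and Cks2 (-1.02). None passed with the higher value at 16 h (5.98% of all genes), and without the fold threshold 17 passed on the lower side (15.4%) and none on the higher side (14.3%). Without Control 16 h replicate 5 there were again 8, of which 5 were the same genes, with Birc5, Cdc20 and Cenpa lost. Without VWF 16 h replicate 2 or replicate 3 there were 5, and without VWF 16 h replicate 5, the culture with the highest levels, there were 15. The calls for Cks2, Birc5 and Cdc20 were lost without any of 8, 6 and 4 of the 20 cultures. For LPS 34 members passed it on the lower side (85%, against 13.4% of all genes) and Tpx2 on the higher side (1.7 ± 0.25, adjusted p = 2.86e-05, against 13.9% of all genes). Without both libraries that stood apart 35 passed on the lower side, with Kif20a added, and 1 on the higher side. The member nearest 0 was Ccnf (0.34 ± 0.33, adjusted p = 0.422). Across the 40 members the log2 fold changes with LPS at 3.5 h and at 16 h, which share no culture, had a Pearson r of 0.04 and a Spearman rho of 0.08, as the plot of one time against the other shows. For VWF the values were 0.19 and 0.20.

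**Figure D4:**
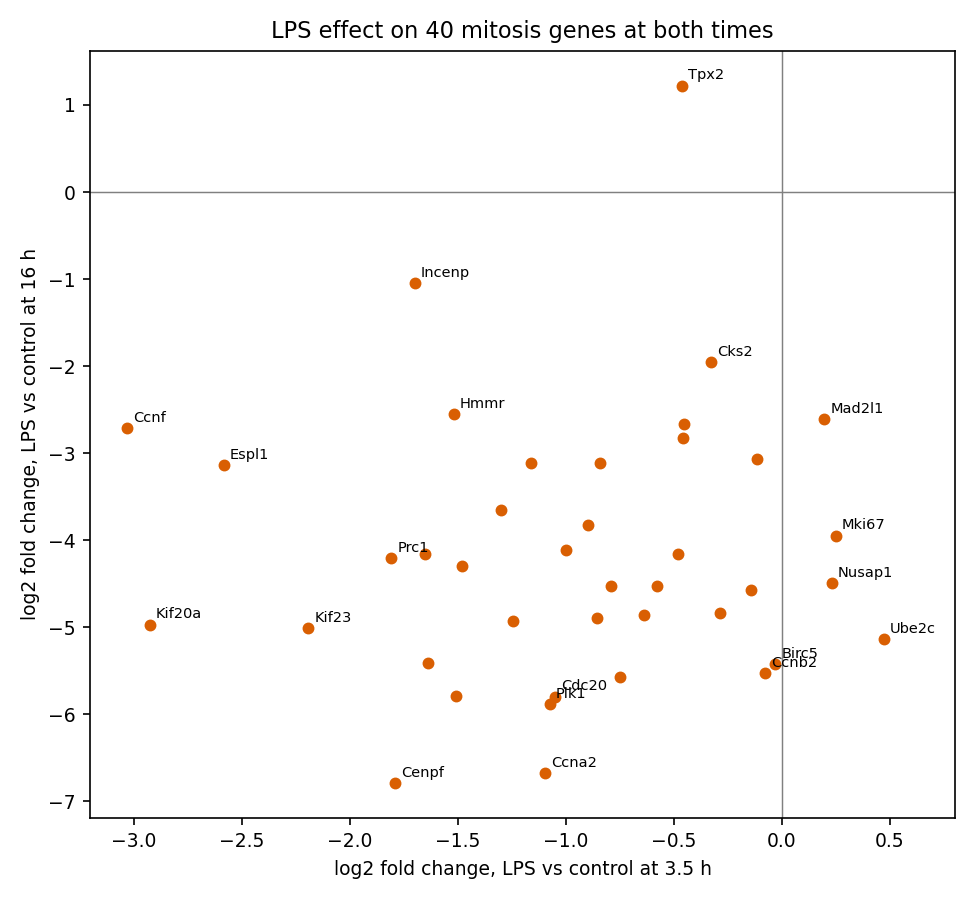
Log2 fold change of each member with LPS against control at 16 h (y axis) against that at 3.5 h (x axis), with 1 point for each of the 40 members. The Pearson r is 0.04, Ccnf and Espl1 lie far left, Ube2c and Mki67 far right, and Tpx2 alone lies above 0 on the y axis.

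None of the 38 replication genes was called lower (against 5.25% of all genes) or higher (against 4.56%) with VWF at 16 h. With 38 genes, such low shares leave few calls to be found. The median log2 fold change of the replication genes was 0.36. Beside them 23 of 40 mitosis genes (57.5%) were called lower, with a median of -1.14. The mean log2 CPM of the replication genes was 5.22 ± 0.1 (SD, n = 5) with VWF and 4.89 ± 0.17 (SD, n = 5) in controls at 16 h. Subtracting it from that of the mitosis genes in each culture gave 0.18 ± 0.19 (SD, n = 5) in controls, -1.28 ± 0.21 (SD, n = 5) with VWF and -1.75 ± 0.13 (SD, n = 4) with LPS at 16 h, and the groups of VWF and control did not overlap. With LPS at 16 h 30 replication genes were lower (78.9%, against 14.2% of all genes), with a median of -2.14, led by Rrm2 (-4.86 ± 0.28, adjusted p = 5.63e-07) and Tk1 (-4.53 ± 0.35, adjusted p = 4.11e-06), both of nucleotide supply. Between 3.5 h and 16 h with VWF 36 of the 38 were called higher (94.7%, against 11% of all genes; median 1.85), led by Cdc6 (4.39 ± 0.2, adjusted p = 8.09e-09), which loads the replicative helicase, and Ccne2 (3.19 ± 0.18, adjusted p = 4.63e-08). In controls 20 of the 38 were called higher over the same time (52.6%, against 5.38% of all genes; median 1.04), and 25 without Control 16 h replicate 5. The interaction test called 11 of them with a higher VWF effect at 16 h (28.9%, against 5.98% of all genes). Of the mitosis genes 5 fell over time with VWF, a share of 12.5% beside 12.7% of all genes, and 1 rose. Of the 67 other mitotic genes, 19 were lower (28.4%, against 5.25% of all genes) and none higher with VWF at 16 h (median -0.62), and 57 were lower (85.1%, against 14.2%) and 1 higher with LPS at 16 h (median -3.55). Without the libraries that stood apart, VWF at 16 h gave no replication gene called and 16 of 67 other mitotic genes lower. Of the 12695 genes 670 were then lower and 625 higher. LPS at 16 h gave 31 of 38 replication genes and 57 of 67 other mitotic genes lower, beside 1872 of the 12695 genes.

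**Figure D5:**
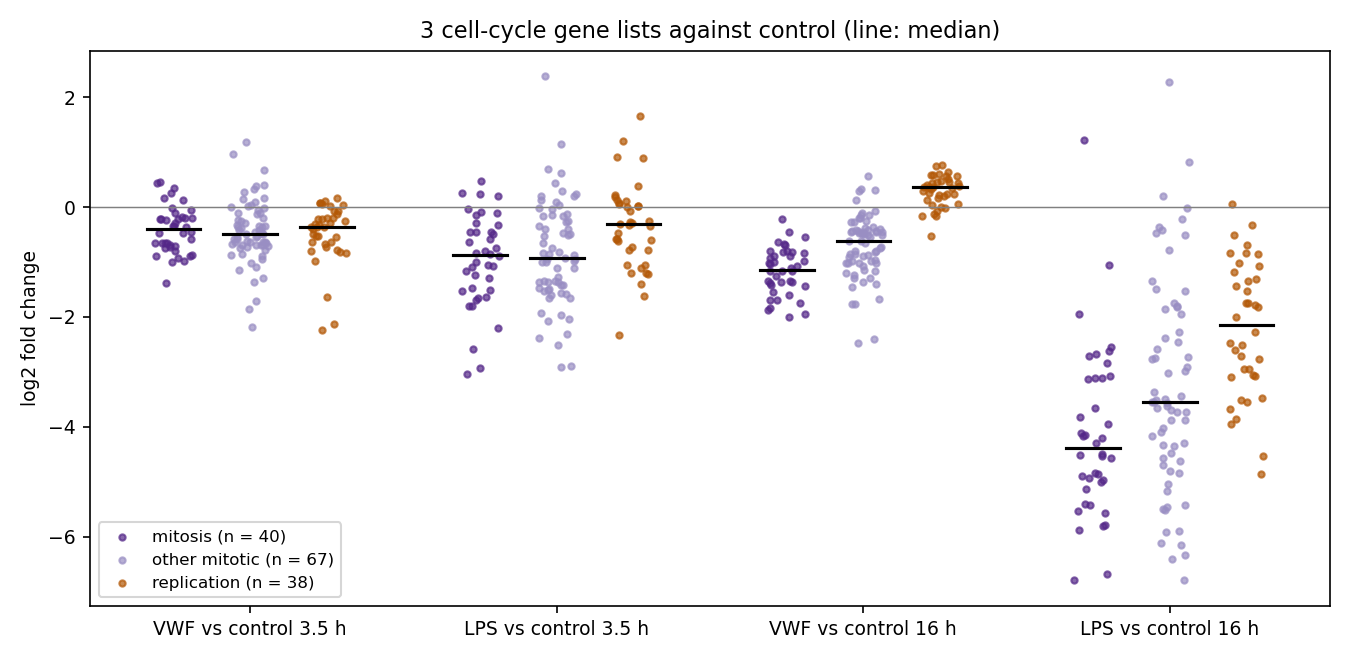
Log2 fold changes against control of the 40 mitosis genes, 67 other mitotic genes and 38 DNA replication genes with VWF and LPS at 3.5 h and 16 h, with 1 point for each gene (y axis, log2 fold change) and a line at the median of each list. With VWF at 16 h the medians are -1.14, -0.62 and 0.36, and with LPS at 16 h -4.39, -3.55 and -2.14.

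Of 23 transcription regulators, 1 was lower with VWF at 3.5 h (E2f2, -1.91 ± 0.24, adjusted p = 5.28e-05), 4.35% of the list beside 5.96% of all genes. With VWF at 16 h 1 was lower too (E2f7, -1.0; 4.35% beside 5.25%). That call rested on Control 16 h replicate 5, where E2f7 read 15.0 CPM against 5.34 to 6.41 CPM in the other controls, and without it no regulator was called. With LPS at 3.5 h 5 regulators were lower (21.7%, against 14.2% of all genes) and 3 higher (13%, against 12.7%), and with LPS at 16 h 7 were lower (30.4%, against 14.2%) and 1 higher (4.35%, against 14.2%). Mybl2, which encodes B-MYB, fell with LPS at 3.5 h (-1.31) and at 16 h (-3.5 ± 0.53, adjusted p = 0.000415), with a difference of 0.02 ± 0.23, adjusted p = 0.974 for VWF at 16 h, not called. E2f1, an activator of S phase genes, was not called against control with either agent and rose between the times in controls (1.12), with VWF (2.16) and with LPS (1.2). E2f7, a repressor of the same targets, fell with LPS at 16 h (-5.6 ± 0.76, adjusted p = 0.000186, on 28 counts over the 4 cultures). Of 14 CDK inhibitors and G1 cyclins, 3 were higher (21.4%, against 8.95% of all genes) and 3 lower (21.4%, against 5.96%) with VWF at 3.5 h, and 3 were lower at 16 h (21.4%, against 5.25%), or 4 without Control 16 h replicate 5. With LPS 3 were higher (21.4%, against 12.7%) and 4 lower (28.6%, against 14.2%) at 3.5 h, and 5 were higher (35.7%, against 14.2%) and 4 lower (28.6%, against 14.2%) at 16 h, or 5 and 5 without both libraries that stood apart.

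Cdkn1a encodes p21, an inhibitor of CDKs. It read 175, 158, 129, 132 and 135 CPM in controls at 3.5 h, 1338, 1635, 1842, 1700 and 1636 CPM with VWF and 1409, 1738, 1952 and 1699 CPM with LPS. At 16 h it read 242, 241, 215, 216 and 171 CPM in controls, 304, 298, 337, 263 and 279 CPM with VWF and 842, 875, 827 and 763 CPM with LPS. Both agents' cultures lay above all controls at both times, and VWF at 16 h was the nearest to them. Cdkn1a rose at 3.5 h with VWF (3.53 ± 0.12, adjusted p = 1.74e-09) and with LPS (3.55 ± 0.14, adjusted p = 1.76e-09) and at 16 h with LPS (1.95 ± 0.12, adjusted p = 1.04e-06), and with VWF at 16 h it was not called (0.44 ± 0.11, adjusted p = 0.0127). Cdkn2c, which encodes the inhibitor p18, fell with VWF (-1.34 at 3.5 h, -1.2 at 16 h) and with LPS (-1.61 and -3.4). Myc, a driver of growth, fell at 3.5 h with VWF (-2.13) and LPS (-3.19) and at 16 h with LPS (-2.6), with -0.91 for VWF at 16 h, not called. Ccnd1, the M-CSF-responsive cyclin D1, fell with both agents at 3.5 h (-2.21 and -3.28), while Ccnd2, cyclin D2, rose (1.4 and 3.89) and was higher with LPS at 16 h too (2.56). At 3.5 h Cdkn1a and Ccnd2 were thus called higher with both agents, and Ccnd1, Myc and the inhibitor gene Cdkn2c lower with both. At that time 1 of 40 members (2.5%, against 5.96% of all genes) was called lower with VWF and 18 (45%, against 14.2%) with LPS. Without the fold threshold 17 were lower with VWF (18.7% of all genes) and 31 with LPS (32.6%). The comparisons share their controls, and a link between these regulators and the members was not tested.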

How the data were processed

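Per the labels and methods, BMDM RNA was extracted with a column kit and sequenced as paired-end reads of 150 bases, and the authors aligned the reads with STAR to GRCm38 (mm10) and deposited whole-number counts per gene, one column for each of the 28 cultures. What STAR version, annotation, strand setting and treatment of multimapping reads was used is not given in the sources used here, so overlapping genes may share reads. No per-sample column of the table lay outside the series.

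Groups came from the labels. Genes averaging at least 0.5 CPM over all 28 cultures were kept (12695). Counts were scaled by TMM and tested with edgeR 4.0.16 (quasi-likelihood, robust dispersion) in R 4.3.3 on the groups compared, with Benjamini-Hochberg adjustment over all genes kept. Time by treatment was tested as an interaction. Each SE is the absolute log2 fold change divided by the square root of the quasi-likelihood F statistic, not a value estimated by the model. Log2 CPM used a prior count of 2. DESeq2 1.42.0 and limma 3.58.1 were used for alternatives and utilities. The fits were also run on simulated counts with the same dispersion for all genes and no library that stands apart. That setting is simpler than these data, so it cannot show how the fits behave with such libraries. Libraries held 41131209 to 77699206 counts, and the lowest total of a member in a group was 23 counts (Cenpf, LPS at 16 h). Alternatives were another tool, other scalings and filters, all groups in 1 fit, no fold threshold, a replicate block and each culture left out. The members, the lists of other mitotic, DNA replication, regulator, CDK inhibitor and cell type genes, and the tests were chosen with earlier results of these data known. All 40 members were counted by role in each comparison, values were given for listed members of each role, and the members with the largest and smallest change or a change against the majority were named. Same-numbered cultures deviated together in every pair (r from 0.136 to 0.684, 4 pairs) only for VWF against LPS at 16 h. The labels do not state that these cultures are pairs, and what they share was not tested. No pair of cultures of a group was a repeated library (chi-square per degree of freedom from 19.2 to 883 over 52 pairs). Symbols and exon lengths came from GENCODE M21 and promoters from RefSeq.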

Additional observations from a re-analysis of the deposited data

Results flagged for a closer look

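Within groups of 4 or 5 cultures, 14 of 126 sets of values held a culture far from the rest, a gap that chance gives in about 1 of 20 sets. VWF 16 h replicate 5 stood above its group in 6 of them. Its mean log2 CPM over the 40 members was 4.41 (next culture 3.87, lowest 3.75), and its log2 CPM was 4.46 for Ccnf, 4.69 for Aurkb, 2.92 for Cenpf, 3.76 for Kif23 and 5.42 for Racgap1. Control 16 h replicate 5 stood above its group for Cdk1 (7.16), Birc5 (7.95) and Ube2c (8.13) and below it for Kif20a (-0.15). LPS 16 h replicate 4 stood above its group for Ube2c (2.53) and below it for Bub1b (0.0805) and Kif20a (-4.81). LPS 3.5 h replicate 3 stood below its group for Incenp (3.58).

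The effects at 3.5 h and 16 h differed by the interaction test for 8 members with VWF and for 35 members with LPS, as the report gives gene by gene.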

How the results depend on the processing

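No member called in the main fit or in an alternative run had a log2 fold change of opposite sign in the other. The balance of lower and higher calls did move for VWF over time. There library size alone added 3 calls and took away 2 on the lower side, Cks2 and Ube2c. The median log2 change of the members was then -0.09 in place of -0.2. After 3.5 h with VWF the 1 member called became 3 with DESeq2, with RLE factors, with filterByExpr, without a filter and with all groups in 1 fit, 2 with the 10 TPM filter (33 members tested, Ccnf not among them), 9 with library size alone and 19 without the fold threshold. Without the fold threshold the counts were 37 for VWF at 16 h, 31 for LPS at 3.5 h, 16 for VWF against LPS at 3.5 h, 21 for controls over time, 19 for VWF over time and 17 for the VWF interaction. With library size alone they were 30 for LPS at 3.5 h and 13 for VWF against LPS at 3.5 h. With the 10 TPM filter they were 2 for VWF against LPS at 3.5 h (23 tested), 22 at 16 h (23 tested) and 16 for LPS over time (16 tested), since fewer members were tested. Without a filter controls over time gave 1. The cause of the other changes was not tested. Among members named in the text, Aurka and Racgap1 with VWF at 16 h lost their calls with DESeq2, RLE factors, filterByExpr and no filter, Tpx2 with LPS at 16 h with library size alone, Hmmr for VWF against LPS with DESeq2 and RLE factors at 3.5 h and no filter at 16 h, Birc5 in controls over time with RLE factors, filterByExpr and no filter, Cdca3 there with library size alone and no filter, Cks2 and Ube2c with VWF over time and Cks2 and Cdc20 in the VWF interaction with library size alone, and Birc5 in that interaction with no filter. Leaving out each culture in turn gave 1 to 7 for VWF at 3.5 h, 19 to 26 for VWF at 16 h, 16 to 20 for LPS at 3.5 h, 39 to 40 for LPS at 16 h, 1 to 5 for controls over time and 5 to 15 for the VWF interaction. Library size alone lowered the share of calls on the higher side from 47.1% to 19.8% for LPS at 3.5 h and from 50% to 21.3% for LPS at 16 h.

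With the replicate number as a block, VWF at 3.5 h gave 3 members (Bub1b and Kif23 added to Ccnf), controls over time 2, VWF over time 7, VWF against LPS 5 at 3.5 h and 38 at 16 h, LPS at 16 h 40, and VWF at 16 h 23, LPS at 3.5 h 18, LPS over time 36 and the interactions 8 and 35. Outside VWF against LPS at 16 h same-numbered cultures did not deviate together in every pair. The labels give such cultures only a number in common.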
